A study of Mus musculus with 10 samples.

Results

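The Notch pathway of the cortical hem (CH) was described through 10 genes chosen by name, which are 3 receptors (*Notch1*, *Notch2*, *Notch3*), 3 ligands (*Dll1*, *Dll3*, *Jag1*) and 4 transcriptional repressors (*Hes1*, *Hes5*, *Hey1*, *Hey2*). They are 10 of the 52227 genes in the counts, and all 10 passed the filter on low counts. The CH is a signaling center at the medial edge of the telencephalon, next to the future hippocampus, and the study asked which of its genes depend on the transcription factor Lmx1a. It compared 5 wild-type embryos with 5 *Lmx1a*-/- embryos at e13.5, the latter homozygous for the *drJ* (dreherJ) allele, and all came from mice on a mixed C57Bl6, FVB and CD1 background. The CH was laser captured from every second coronal section, and the sections of 1 embryo were pooled into 1 library. The *drJ* allele is carried in every cell of the embryo, so the comparison is not limited to *Lmx1a* loss in the CH.

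Notch receptors are activated by Delta and Jagged ligands on neighboring cells. Cleavage by gamma-secretase then frees the intracellular part of the receptor, which joins the DNA-binding protein Rbpj and a Mastermind coactivator to turn on genes of the Hes and Hey families. In the embryonic cortex these repressors hold neural progenitors in an undifferentiated state, while differentiating neighbors present the ligands, and in blood vessels the same pathway directs the choice of vessel type.

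The regulatory sequence that ties the receptors to the repressors is the Rbpj site, so the promoters of the members were searched for the letters GTGGGAA on both strands, on which the reverse complement reads TTCCCAC and the matches do not overlap. RefSeq windows of GRCm38.p6, from 250 bases before to 50 bases after each start, were found for 8 of the 10 members, and *Hes1* and *Hey1* were not among them. *Hes5* and *Hey2* each held 2 matches, and the other 6 genes (*Notch1*, *Notch2*, *Notch3*, *Dll1*, *Dll3*, *Jag1*) had none in their windows. Of all 32851 promoters of this length, 6.38% held at least 1 match and 0.256% held 2 or more. The *Hes5* stretch is the 250 bases before the start (chr4:154960673-154960922, plus strand), and the first *Hey2* stretch lies before the annotated first exon (chr10:30842802-30843033, minus strand), with the matches in capitals. The second *Hey2* match lies across the RefSeq start (chr10:30842781-30842795, minus strand) and is given on its own line.
*Hes5*: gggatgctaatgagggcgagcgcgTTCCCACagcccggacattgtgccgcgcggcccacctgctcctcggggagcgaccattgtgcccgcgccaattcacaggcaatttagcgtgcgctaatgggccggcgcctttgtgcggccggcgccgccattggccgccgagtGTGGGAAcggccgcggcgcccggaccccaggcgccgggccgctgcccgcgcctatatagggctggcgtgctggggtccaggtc
*Hey2*: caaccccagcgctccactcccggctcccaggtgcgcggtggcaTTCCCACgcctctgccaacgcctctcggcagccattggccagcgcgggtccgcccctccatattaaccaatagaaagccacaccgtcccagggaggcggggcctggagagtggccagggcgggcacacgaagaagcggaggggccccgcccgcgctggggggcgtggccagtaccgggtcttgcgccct
*Hey2* start: gctgcagcGTGGGAA
In *Hes5* the matches begin at positions -226 and -83 from the start, and in *Hey2* at -207 and -4. In both promoters the distal match reads TTCCCAC and the proximal match GTGGGAA. A match describes the letters only and is not evidence of binding.

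Libraries held 19145952 to 36462780 counts, and 21664 genes, each with 10 or more counts in 3 or more libraries, entered edgeR's quasi-likelihood test at a false discovery rate (FDR) of 0.1. Levels are normalized CPM (counts scaled to library size by TMM) as mean ± SD over 5 embryos, and log2 fold changes are *Lmx1a*-/- against wild type with their SE. *Lmx1a* mRNA was 71.2 ± 18.2 CPM in wild-type and 114 ± 21.0 CPM in mutant libraries. That level does not check the genotype labels, since the paper describes *drJ* as a point mutation that still lets inactive Lmx1a protein be made. Of 9 CH genes examined, 5 passed the threshold as lower (*Wnt2b*, *Wnt5a*, *Bmp7*, *Msx1* and *Lmo2*), 1 passed as higher and 3 did not pass. The list also held *Lmx1a*, *Wnt3a*, *Wnt8b* and *Bmp6*, and across all genes tested 2.29% were lower and 1.72% higher. All 5 mutant libraries and wild-type embryo 1 contained Y-linked transcripts, while wild-type embryos 2 to 5 contained *Xist* at 4399 CPM or more. Genotype and embryonic sex therefore cannot be told apart except through wild-type embryo 1. The values of that embryo are given for each of the 10 genes and for only some of the others. The summed level of 12 choroid plexus genes was 133 to 487 CPM in wild-type and 154 to 232 CPM in mutant libraries, with 10 of 11 tested genes lower on average (median log2 fold change -1.15), 8 with an unadjusted p under 0.05 and 2 past the threshold (*Ttr* and *Calml4*), and its part in the results was not tested beyond the fits named below. In bulk tissue, fewer cells of a type and less RNA per cell cannot be told apart.

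Of the 10 genes, *Hey1* rose, *Dll3* fell and 8 did not pass the test. Across all genes tested, 4.02% passed (2.29% lower and 1.72% higher), and a count as small as 2 of 10 is not read as particular to these genes. The genotypes did not overlap in 2 of the 10 genes, *Dll1* and *Hey1*, against 4.44% of all genes. The median log2 fold change of the 10 genes was 0.05, against -0.0049 over all genes tested, with 6 genes higher on average and 4 lower. The plot of values by embryo shows each gene.

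**Figure D1:**
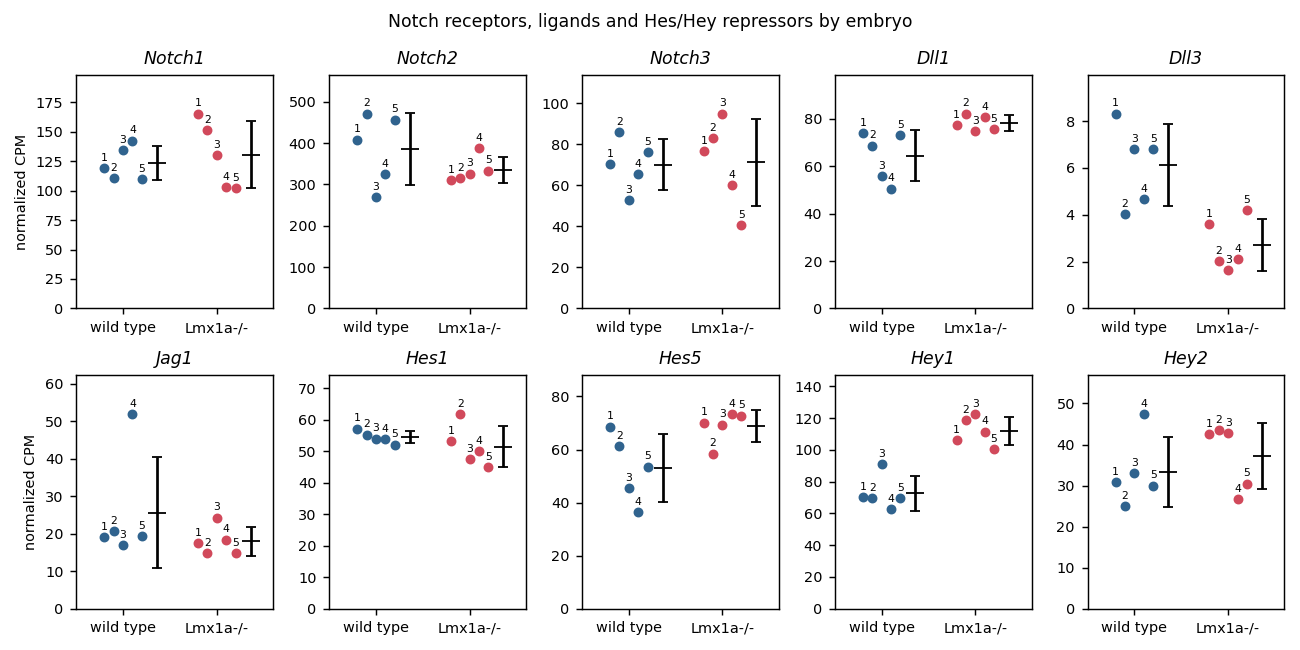
Normalized CPM (y axis, starting at 0) of the 10 genes in each of 5 wild-type (blue) and 5 *Lmx1a*-/- (red) libraries, numbered by embryo, with the mean and SD beside the points. The *Hey1* points separate by genotype (at most 91.2 CPM in wild type and at least 100.5 CPM in mutants), *Dll3* is lower in *Lmx1a*-/- with 1 mutant above 1 wild type, and *Jag1* of wild-type embryo 4 lies at 51.9 CPM.

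None of the 3 receptors passed the test, and the genotypes overlapped in each. *Notch1* (ENSMUSG00000026923, GRCm38 chromosome 2, 26457903 to 26516663, minus strand), a receptor of neural progenitors, lay between 110.0 and 142.3 CPM in wild type and between 102.1 and 165.3 CPM in mutants, with wild-type embryo 1 at 119.0 CPM. Its log2 fold change was 0.08 ± 0.14, with an edgeR FDR of 0.828. *Notch2* (ENSMUSG00000027878, chromosome 3, 98013527 to 98150361, plus strand) had the highest CPM of the 10 genes and spread more widely in wild type (268.7 to 471.8 CPM) than in *Lmx1a*-/- (310.0 to 388.4 CPM). The 2 lowest wild-type values, in embryos 3 and 4, were the only ones within the mutant range or below it, and embryo 1 measured 408.9 CPM. Its mean was 386 ± 87.1 CPM in wild type and 335 ± 31.2 CPM in mutants, a log2 fold change of -0.21 with a 95% interval from -0.50 to 0.09 (edgeR FDR 0.493). *Notch3* (ENSMUSG00000038146, chromosome 17, 32120820 to 32166852, minus strand), known in progenitors and in the mural cells of vessels, averaged 70.2 ± 12.4 CPM and 71.2 ± 21.1 CPM, with 70.4 CPM in wild-type embryo 1. In *Notch3* the highest and the lowest value of all 10 libraries both belonged to mutants, embryo 3 at 95.1 and embryo 5 at 40.8 CPM. Its 95% interval ran from -0.40 to 0.44 on the log2 scale, so changes within that range were not excluded.

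Of the 3 ligands, *Dll3* fell and *Dll1* and *Jag1* did not pass the test. *Dll3* (ENSMUSG00000003436, chromosome 7, 28293553 to 28302238, minus strand), a divergent Delta protein that stays mostly inside the cell and is made by newly formed neurons, was the lowest of the 10 genes. In wild-type embryos 1 to 5 it measured 8.32, 4.01, 6.79, 4.67 and 6.80 CPM, and in *Lmx1a*-/- embryos 1 to 5 it measured 3.59, 2.01, 1.64, 2.10 and 4.21 CPM. Mutant embryo 5 was above wild-type embryo 2, and the other 4 mutants lay below every wild type. The mean fell from 6.12 ± 1.75 to 2.71 ± 1.12 CPM, to 0.443 of the wild-type level, with a log2 fold change of -1.17 ± 0.30 and an edgeR FDR of 0.0679. Wild-type embryo 1, the 1 wild type with Y-linked transcripts, had the highest *Dll3* of all 10 libraries. *Dll3* was lower in 29 of 29 alternative fits, with log2 fold changes from -1.62 to -0.96. These fits draw on the same libraries and include the reported fit read at an FDR of 0.05, so they are not independent. The call was lost without wild-type embryo 1 (FDR 0.153) or 5 (0.11) or mutant embryo 2 (0.138) or 4 (0.155) in the same edgeR test. It was also lost with the *Xist* level (edgeR FDR 0.302) or the choroid plexus genes (0.757) in the model and in the libraries with Y-linked transcripts alone (0.313).

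*Dll1* (ENSMUSG00000014773, chromosome 17, 15367354 to 15376872, minus strand), the Delta ligand presented by differentiating neighbors, measured 74.1, 68.7, 55.9, 50.5 and 73.2 CPM in wild-type embryos 1 to 5. In *Lmx1a*-/- embryos 1 to 5 it measured 77.5, 82.2, 74.7, 80.8 and 75.8 CPM. Every mutant was above every wild type, although the lowest mutant exceeded wild-type embryo 1 by less than 1 CPM. The means were 64.5 ± 10.6 and 78.2 ± 3.23 CPM, and the log2 fold change of 0.28 ± 0.11 did not pass the test (edgeR FDR 0.207). When the lone wild-type library with Y-linked transcripts was set against the 5 mutants, the log2 fold change of *Dll1* was 0.07.

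*Jag1* (ENSMUSG00000027276, chromosome 2, 137081456 to 137116644, minus strand), a Jagged ligand of progenitors and vessels, measured 19.0, 20.7, 16.9, 51.9 and 19.4 CPM in wild-type embryos 1 to 5 and 17.6, 14.9, 24.3, 18.4 and 14.9 CPM in *Lmx1a*-/- embryos 1 to 5. Wild-type embryo 4 stood apart at 51.9 CPM, and the other 9 libraries overlapped. The log2 fold change of -0.50 ± 0.28 did not pass (edgeR FDR 0.409) and was -0.08 without that embryo. In that library the summed level of 8 mesenchyme genes (615 CPM) lay within the range of the other wild types, and that of 12 endothelial genes (32.1 CPM) was the lowest of the wild types. Its radial glia (3710 CPM), neuronal (872), medial pallium (368), mural (48.8) and red blood cell (617) sums were also the lowest of the wild types. Its choroid plexus, Cajal-Retzius cell, CH and microglial sums lay within the range of the other wild types. The part of these levels in the *Jag1* value was not tested.

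Among the repressors, *Hey1* (ENSMUSG00000040289, chromosome 3, 8663359 to 8667256, minus strand), a Notch-induced repressor that restrains neuronal differentiation, carried the clearest difference. In wild-type embryos 1 to 5 it measured 70.2, 69.5, 91.2, 62.6 and 69.8 CPM, and in *Lmx1a*-/- embryos 1 to 5 it measured 106, 119, 123, 111 and 100.5 CPM. All 5 mutants were above all 5 wild types, and wild-type embryo 3 was the nearest to them. The mean rose from 72.7 ± 10.8 to 112 ± 9.03 CPM, or 1.54-fold, with a log2 fold change of 0.62 ± 0.10 and an edgeR FDR of 0.0066, which placed it at rank 108 of the 21664 genes by p-value. It passed in 10 of 10 fits that left out 1 embryo, with log2 fold changes of 0.57 to 0.71. Wild-type embryo 1 lay among the other wild types at 70.2 CPM, and in the libraries with Y-linked transcripts alone the log2 fold change was 0.67, where the 1 wild type left is assumed to vary like the mutants and the call was lost (edgeR FDR 0.161). With the mean of the choroid plexus genes in the model it was 0.36 (edgeR FDR 0.757), and with the *Xist* level 0.66 (edgeR FDR 0.311).

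*Hes5* (ENSMUSG00000048001, chromosome 4, 154960923 to 154962371, plus strand), an effector of Notch in cortical progenitors whose promoter with 2 Rbpj matches is given above, measured 68.6, 61.2, 45.4, 36.3 and 53.6 CPM in wild-type embryos 1 to 5. In *Lmx1a*-/- embryos 1 to 5 it measured 70.1, 58.5, 69.4, 73.4 and 72.8 CPM. Mutant embryo 2 lay below wild-type embryos 1 and 2, and the remaining 4 mutants lay above every wild type. The means were 53.0 ± 12.7 and 68.8 ± 6.04 CPM, and the log2 fold change of 0.38 ± 0.15 did not pass (edgeR FDR 0.210). *Hes5* in wild-type embryo 1 was within the mutant range, and the log2 fold change was 0.02 with the *Xist* level in the model and -0.0012 in the libraries with Y-linked transcripts alone. In both of these fits the *Hes5* value went to about 0 and the *Hey1* value stayed at 0.66 or above, as the plot of alternative fits shows, and the difference between the genes was not tested.

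*Hes1* (ENSMUSG00000022528, chromosome 16, 30064384 to 30067796, plus strand), the other classical Notch effector of progenitors, was the most even gene in wild type, at 52.1 to 57.2 CPM (the latter in embryo 1), and spread from 45.0 to 61.8 CPM in *Lmx1a*-/-. Its log2 fold change of -0.08 had a 95% interval from -0.28 to 0.11 (edgeR FDR 0.707). *Hey2* (ENSMUSG00000019789, chromosome 10, 30832359 to 30842801, minus strand), known in vessels and heart as well as in the brain, measured 25.03 to 47.5 CPM in wild type (30.8 CPM in embryo 1) and 26.8 to 43.4 CPM in mutants. Its 3 highest mutants, embryos 1 to 3, lay between 42.5 and 43.4 CPM, and embryos 4 and 5 lay at 26.8 and 30.5 CPM, among the wild types. The log2 fold change was 0.16 ± 0.18, with an edgeR FDR of 0.710. *Hes5* and *Hey2*, whose promoter windows held Rbpj matches, both missed the threshold. No window was found for *Hes1* or *Hey1*, so matches and test results could not be compared among the repressors.

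**Figure D2:**
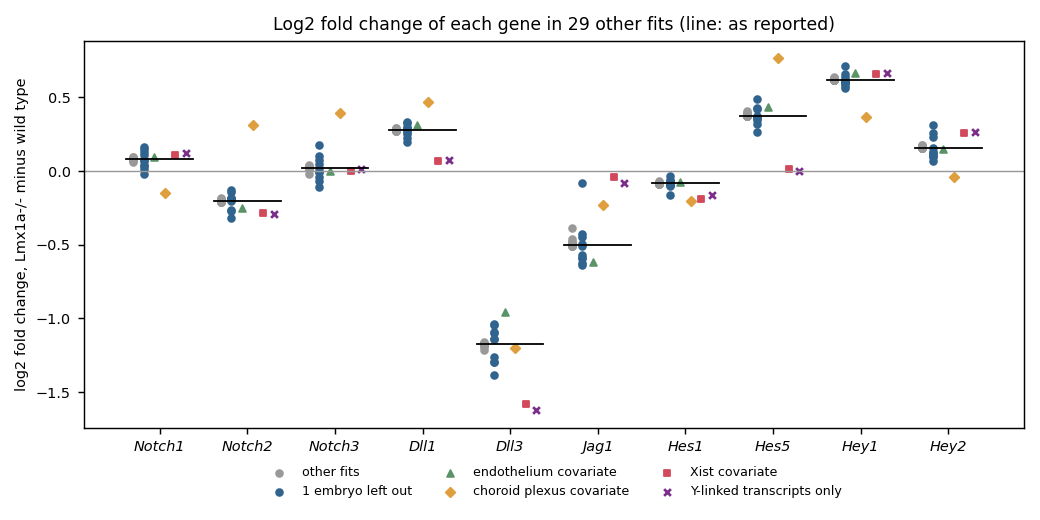
Log2 fold change of each of the 10 genes (y axis, *Lmx1a*-/- minus wild type) as reported (black line) and in 29 alternative fits (points), with the fits that add a covariate or keep only the libraries with Y-linked transcripts marked by color and shape. *Hey1* stays above 0 (0.36 to 0.71) and *Dll3* below it (-1.62 to -0.96), while *Hes5* reaches -0.0012 in the libraries with Y-linked transcripts.

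Levels between genes were compared per length, as normalized CPM per kb of exon. In wild type the order was *Hes5* (38.9 CPM per kb), *Notch2* (35.8), *Hes1* (26.7), *Hey1* (22.3), *Dll1* (15.3), *Notch3* (8.68), *Notch1* (8.66), *Hey2* (7.25), *Jag1* (4.39) and *Dll3* (2.15). The ranges over embryos were separate only between the neighbors *Hey1* and *Dll1* and the neighbors *Dll1* and *Notch3*, and the other 7 pairs of neighbors overlapped. Read within each embryo, *Hey2* stood above *Jag1* and *Jag1* above *Dll3* in all 5 wild types. The remaining overlapping pairs kept their order in 3 or 4 of the 5. With the longest transcript as the length, *Hes1* (37.1 CPM per kb) stood above *Notch2* (36.8), and *Hey2* (13.1) above *Notch1* (13.0) and *Notch3* (8.76). In *Lmx1a*-/- the order began with *Hes5* (50.5 CPM per kb), *Hey1* (34.3), *Notch2* (31.1) and *Hes1* (25.3), so *Hey1* stood in the second place by its mean, and it ended with *Dll3* (0.951). *Hey1* made up 20.2% to 29.4% of the summed per-length level of the 4 repressors in wild type (median 23.0%) and 27.2% to 31.0% in *Lmx1a*-/- (median 28.8%). The share of *Hes1* was 26.3% to 32.01% in wild type and 19.2% to 25.5% in *Lmx1a*-/-, with no overlap, although its own level did not pass the test. These shares add up to a whole, so that of *Hes1* also depends on the other repressors. The per-length means of both *Hey1* (22.3 and 34.3 CPM per kb) and *Hes5* (38.9 and 50.5) were higher in *Lmx1a*-/-, though *Hes5* did not pass the test.

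**Figure D3:**
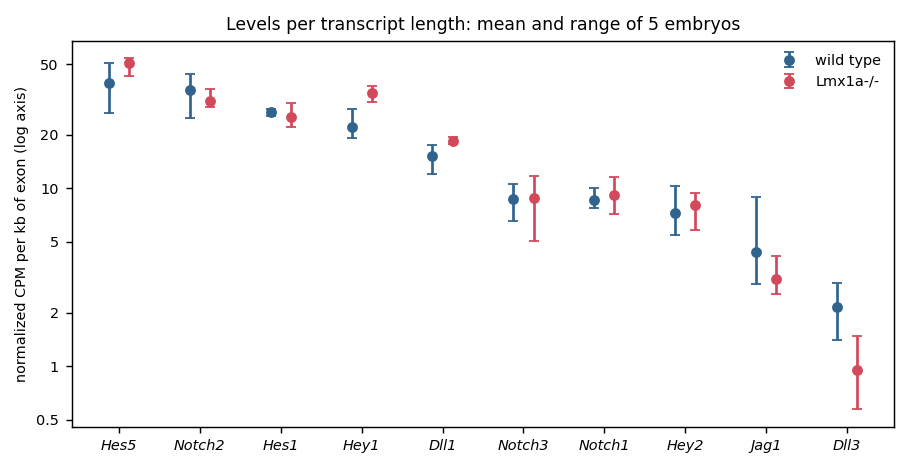
Normalized CPM per kb of exon (log axis) of the 10 genes in wild type (blue) and *Lmx1a*-/- (red), with points at the mean and bars from the lowest to the highest of 5 embryos. The genes are ordered by their wild-type mean, from *Hes5* (38.9 CPM per kb) to *Dll3* (2.15 CPM per kb).

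Over the 10 libraries, after the genotype mean was removed from log2 CPM, none of the 45 pairs of members correlated past an adjusted permutation p of 0.05, and 4 did before adjustment for Pearson's r. The most positive was *Notch1* with *Hey2* (r = 0.84, permutation p = 0.0021, adjusted 0.0945; rho = 0.83, permutation p = 0.0120, adjusted 0.135), with r = 0.89 without the 2 libraries farthest in *Notch1*. The smallest unadjusted p with a negative r was that of *Notch1* and *Notch2* (r = -0.63, permutation p = 0.0044, adjusted 0.0994; rho = -0.72, permutation p = 0.0025, adjusted 0.0697), with r = -0.77 without the same libraries. In mutants the *Notch1* and *Hey2* values were both higher in embryos 1 to 3 than in embryos 4 and 5. The genes whose deviations from the genotype mean were most like those of *Dll3*, among 9269 genes with a mean of at least 10 CPM, were *Rala* (r = 0.97), *Tpm4* (r = 0.95) and *Ebf1* (r = 0.95) over 10 libraries. For *Hey1* they were *Washc5* (r = 0.90), *Pole4* (r = 0.89) and *Gm37233* (r = 0.87). Such maxima of a search over 9269 genes describe these libraries and carry no test.

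The wider pathway was read from a list of 72 further genes, of which 69 were tested (*Hes3*, *Hes7* and *Helt* were too low) and 5 passed, 2 lower and 3 higher. The median log2 fold change of the 69 genes was -0.05, with 42 lower and 27 higher on average. Of all 21664 genes tested, 10962 were lower and 10702 higher, and the difference in these splits was not tested. The genotypes did not overlap in 3 of the 69, *Tle3*, *Numbl* and *Bhlhe40*, a share near the 4.44% of all genes. These 5 of 69 genes stand beside the 4.02% of all genes that passed.

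*Bhlhe40*, a repressor related to the Hes and Hey proteins, was the clearest of the list. It measured 14.3, 15.7, 15.8, 17.96 and 18.4 CPM in wild type and 31.0, 25.8, 27.0, 25.5 and 21.8 CPM in mutants, in order of embryo number. Every mutant was above every wild type, and the mean rose from 16.4 ± 1.70 to 26.2 ± 3.29 CPM (log2 fold change 0.68 ± 0.12, edgeR FDR 0.0097). It passed in 10 of 10 fits that left out 1 embryo, as *Hey1* did, and like *Hey1* it did not pass with the *Xist* level (edgeR FDR 0.204) or the choroid plexus genes (0.585) in the model or in the libraries with Y-linked transcripts alone (0.245). Of its relatives, *Hes6*, which promotes neuronal differentiation, was 52.8 ± 10.1 CPM in wild type and 43.8 ± 6.56 CPM in mutants (log2 fold change -0.27, edgeR FDR 0.351), and *Heyl* was 4.58 ± 2.46 and 3.33 ± 1.74 CPM (-0.47, FDR 0.619).

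In the nuclear complex, *Rbpj* itself was 108 ± 8.51 CPM in wild type and 122 ± 11.1 CPM in mutants and did not pass (log2 fold change 0.17 ± 0.08, edgeR FDR 0.342). Of the 9 genes of this group 1 passed, the Mastermind coactivator *Maml2*, which rose from 58.2 ± 6.57 to 76.9 ± 5.81 CPM (log2 fold change 0.40 ± 0.09, edgeR FDR 0.0415). The related *Maml1* and *Maml3* had log2 fold changes of -0.08 and -0.21 (edgeR FDR 0.753 and 0.505). Among 11 corepressor genes, the Groucho proteins went in different directions. *Tle4* rose from 83.7 ± 11.5 to 114 ± 16.4 CPM (log2 fold change 0.44 ± 0.11, edgeR FDR 0.0631). *Tle3* fell from 89.8 ± 6.68 to 70.3 ± 9.80 CPM with no overlap (log2 fold change -0.35 ± 0.10, edgeR FDR 0.0907). *Kdm5a* (log2 fold change 0.24, edgeR FDR 0.113) did not pass. *Tle3* passed in 14 of 29 alternative fits and *Tle4* in 20, so both sit near the threshold, and with the *Xist* level in the model the edgeR FDR of *Maml2*, *Tle4* and *Tle3* was 0.381, 0.372 and 0.540.

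The further ligands were mostly lower on average, with 5 of 6 below wild type and 1 past the threshold. That gene, *Dlk2*, which encodes a Delta-like membrane protein, fell from 1.27 ± 1.03 to 0.279 ± 0.160 CPM (log2 fold change -2.17 ± 0.62, edgeR FDR 0.0956). It measured 0.336, 0.857, 1.29, 3.01 and 0.850 CPM in wild-type embryos 1 to 5, so its wild-type level rests in large part on embryo 4, and it passed in 2 of 10 fits that left out 1 embryo. *Jag2* was 15.8 ± 6.56 CPM in wild type, again highest in embryo 4 at 27.1 CPM, and 6.65 ± 4.58 CPM in *Lmx1a*-/- (log2 fold change -1.24 ± 0.40, edgeR FDR 0.136). *Dll4*, a ligand of vessel sprouts, was 2.88 ± 1.14 and 1.47 ± 0.450 CPM (log2 fold change -0.98 ± 0.35, edgeR FDR 0.180), and the exception *Dlk1* had a log2 fold change of 0.50 (FDR 0.692). *Notch4*, the receptor of endothelium, was 4.12 ± 0.708 and 3.49 ± 0.554 CPM (log2 fold change -0.24, edgeR FDR 0.621).

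No gene of receptor cleavage (10 tested), receptor glycosylation (6), ligand endocytosis (6) or inhibition and turnover (15) passed edgeR's quasi-likelihood test, while 1, 0, 1 and 4 of these had an unadjusted p under 0.05, as did 3545 of all 21664 genes. The protease gene *Furin* (log2 fold change -0.42, edgeR FDR 0.210) had the smallest p among lower genes of cleavage, and *Aph1b* (0.14, FDR 0.545) and *Adam10* (0.10, FDR 0.552) the smallest among higher ones. Of the Fringe glycosyltransferases, *Lfng* was 33.9 ± 5.199 and 32.9 ± 6.86 CPM (log2 fold change -0.04, edgeR FDR 0.925), *Mfng* had a log2 fold change of -0.21 (FDR 0.417) and *Rfng* of 0.40 (FDR 0.337). Of the other enzymes of this group, *Eogt* had a log2 fold change of -0.15 (edgeR FDR 0.661) and *Poglut1* of 0.08 (FDR 0.691). In ligand endocytosis, the log2 fold changes of *Epn1* (-0.49, edgeR FDR 0.252), *Neurl1b* (-0.57, FDR 0.572) and *Mib2* (0.17, FDR 0.760) did not pass. *Nrarp*, a direct target that dampens Notch, was 2.93 ± 0.551 and 1.66 ± 0.841 CPM (log2 fold change -0.82 ± 0.34, edgeR FDR 0.246). *Numbl*, listed as an inhibitor of Notch, was 16.1 ± 1.04 and 12.5 ± 1.09 CPM with no overlap (log2 fold change -0.37 ± 0.12, edgeR FDR 0.129). *Fbxw7*, whose ubiquitin ligase removes the active receptor fragment, had a log2 fold change of 0.41 ± 0.12 (edgeR FDR 0.114) and the kinase gene *Cdk8* of 0.11 (FDR 0.490).

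**Figure D4:**
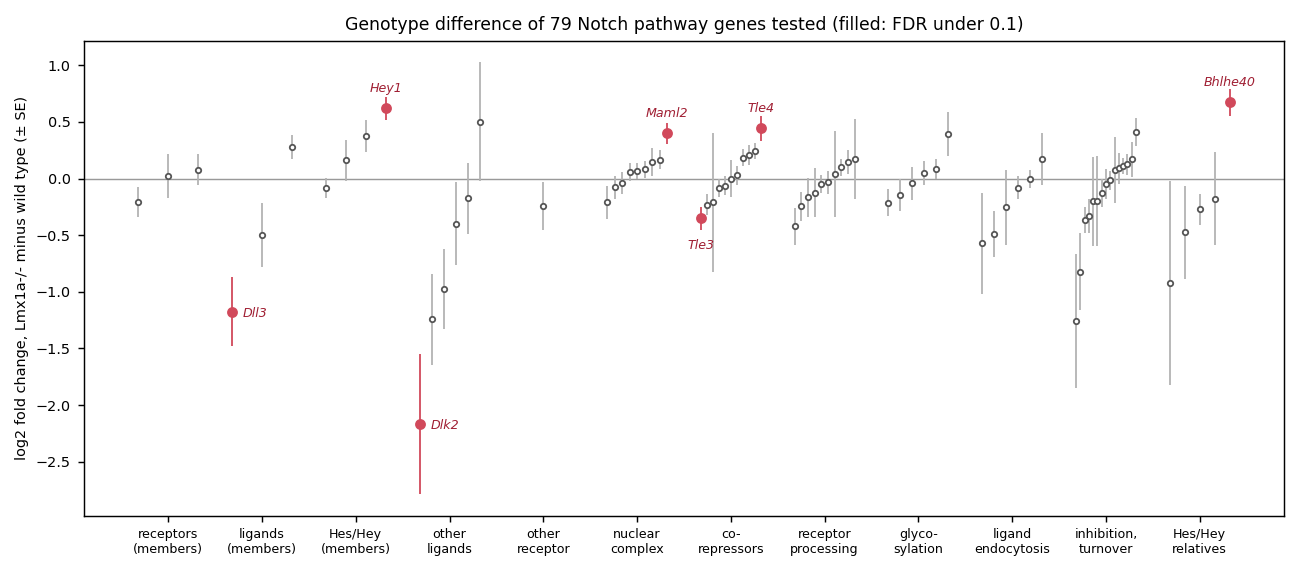
Log2 fold change (y axis, *Lmx1a*-/- minus wild type, bars ± SE) of the 10 members and 69 further pathway genes by role, with genes of FDR under 0.1 filled and named. The named genes are *Hey1*, *Maml2*, *Tle4* and *Bhlhe40* above 0 and *Dll3*, *Dlk2* and *Tle3* below it, and the cleavage, glycosylation, endocytosis and inhibition groups hold no filled point.

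Since several members act in vessels and in neurons as well as in progenitors, markers of these cells were read in the same libraries. Of 12 endothelial and 11 mural genes, 0 passed edgeR's test (2 and 2 had an unadjusted p under 0.05). The endothelial sum was 32.1 to 115 CPM in wild type and 28.9 to 70.0 CPM in mutants, the mural sum was 48.8 to 92.3 and 37.6 to 76.3 CPM, and *Cdh5* was the highest endothelial gene at 19.0 ± 11.0 and 15.8 ± 4.59 CPM. With the mean of the endothelial genes in the model, *Hey1* had a log2 fold change of 0.67 (edgeR FDR 0.0052) and *Dll3* of -0.96 (FDR 0.0935). Of 10 radial glia genes 1 passed, *Vim*, which rose from 671 ± 121 to 1223 ± 79.6 CPM, while the proliferation genes *Mki67* and *Top2a* did not (log2 fold changes 0.01 and 0.12, edgeR FDR 0.973 and 0.586). The radial glia sum, which includes *Vim*, was 3710 to 4918 CPM in wild-type and 4840 to 6110 CPM in mutant libraries. Of the 10 genes 8 were higher and 2 lower on average. Of 10 neuronal genes 0 passed (2 had an unadjusted p under 0.05), with 7 higher and 3 lower on average. The neuronal sum was 872 to 1394 CPM in wild-type and 985 to 1501 CPM in mutant libraries. Of 8 tested Cajal-Retzius (CR) cell genes *Reln*, *Trp73* and *Lhx1* fell and *Lhx5* rose. The CR cell sum was 329 to 531 CPM in wild-type and 217 to 314 CPM in mutant libraries. Of 6 medial pallium genes *Emx2* and *Nr2e1* rose, and of 8 mesenchyme genes *Dcn* and *Lum* fell. Of 7 tested red blood cell genes 0 passed edgeR's test (4 had an unadjusted p under 0.05 and 6 were lower on average), and their sum was 617 to 1463 CPM in wild-type and 261 to 568 CPM in mutant libraries, without overlap. Of 7 microglial genes 0 passed (1 had an unadjusted p under 0.05). The part of the radial glia, neuronal, CR cell, medial pallium, mesenchyme and red blood cell levels in the *Hey1* and *Dll3* differences was not tested.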

How the data were processed

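Sequencing covered RNA of laser-captured CH from 5 wild-type and 5 *Lmx1a*-/- embryos, 1 library each, with genotype and embryo number taken from the labels. The authors trimmed paired reads with Trimmomatic after FastQC 0.11.8, aligned them to GRCm38 with STAR 2.7.1a and counted reads per Ensembl gene with HTSeq 0.11.2, whose strand setting is not given in the sources used here. The deposited values are raw read counts per gene, without normalization, and the submitters' processing notes name the versions. Antisense and other genes whose exons overlap *Notch1*, *Notch2*, *Notch3* and *Hes5* held at most 73 counts in any library, against at least 700 for those members.

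Of 52508 deposited rows, 281 that repeat another row were dropped. Gene positions follow GENCODE M21 (GRCm38). Genes reaching 10 counts in 3 or more libraries were scaled by TMM and compared with the quasi-likelihood test of edgeR 4.0.16 (R 4.3.3, the dispersion method of earlier versions), with all 10 libraries, no covariate and Benjamini-Hochberg adjustment over all 21664 genes. The SE is the log2 fold change divided by the square root of F. CPM per kb used the union of exons. Permutations of correlations (100000) were drawn within genotypes. Intervals are not adjusted for the number of genes.

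The 10 genes, the lists and the tests were chosen with earlier results of these data known. Named from the 72 further pathway genes were those under the threshold, up to 2 lower and 2 higher genes of smallest p per group, and *Rbpj*, *Notch4*, *Dll4*, *Jag2*, *Heyl*, *Hes6*, *Lfng* and *Nrarp*. Some genes that this rule names are left out of the text. Alternatives were other tests (edgeR likelihood ratio and exact, DESeq2 1.42.0, the newer and robust dispersions), scalings, filters, a replicate block, covariates, an FDR of 0.05, repeated rows kept, mitochondrial genes left out and 1 embryo left out. Numbers shared by wild-type and mutant embryos were not treated as pairs in the reported fit. Deviations of same-numbered libraries from the genotype means correlated at -0.0985 to 0.0133, which cannot exclude that embryos shared litters. The paper compares mutants with wild-type littermates, and the labels do not give the litters.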

Additional observations from a re-analysis of the deposited data

Results flagged for a closer look

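In 3 of the 20 groups of 5 embryos (10 genes in 2 genotypes), 1 embryo lay farther from its nearest neighbor, relative to the range of the group, than the 0.71 limit of Dixon's test, where chance gives about 1 in 20 groups. *Jag1* in wild-type embryo 4 was 51.9 CPM, and the other 4 wild types lay between 16.9 and 20.7 CPM. *Hes5* in *Lmx1a*-/- embryo 2 was 58.5 CPM, the lowest of its genotype. *Hey1* in wild-type embryo 3 was 91.2 CPM, the highest of its genotype and still below the lowest mutant at 100.5 CPM.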

How the results depend on the processing

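Among the 10 genes, 1 was lower and 1 was higher as reported. None was lower or higher (0 and 0) with *Xist* or the choroid plexus genes as a covariate or with only the libraries with Y-linked transcripts, although 2, 4 and 2 genes then had an unadjusted p under 0.05 (as did 2057 and 1389 of all 21664 genes and 1934 of 20235), and 0 was lower at an FDR of 0.05. Leaving out 1 embryo gave 0 to 1 lower. Of the further pathway genes, 1 was lower with upper-quartile scaling, library size only, the endothelial covariate or the replicate block, and 0 without the low-count filter, with either of the other covariates, with the Y-linked libraries or at an FDR of 0.05, while 5 were higher with DESeq2 or library size only and 0 with the *Xist* or choroid plexus covariate or the Y-linked libraries. Without 1 embryo, 0 to 2 were lower and 1 to 4 higher. Over all genes, 497 lower and 373 higher calls became 28 and 5 (*Xist*), 11 and 9 (choroid plexus), 86 and 44 (Y-linked libraries), 251 and 197 (FDR of 0.05), 953 and 741 (DESeq2) and, lower only, 805 (likelihood ratio) and 772 (exact test). Without 1 embryo, they were 261 to 604 lower and 190 to 455 higher. The replicate block gave 353 lower and 248 higher genes, with 0 of 5 pairs correlating best within the number, and left the calls of *Hey1* and *Dll3* in place. The covariates correlate with genotype (r = -0.82 for *Xist* and -0.81 for choroid plexus), and the cause of the lost calls was not tested. With the longest transcript as the length, the wild-type levels were 13.0 (*Notch1*), 18.01 (*Dll1*), 37.1 (*Hes1*), 29.99 (*Hey1*) and 13.1 (*Hey2*) CPM per kb, and the order of the genes changed.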

Other observations

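Of the 56 further pathway genes with a RefSeq promoter window, 5 held a match to GTGGGAA or its reverse complement (*Aph1a*, *Hes7*, *Lfng*, *Psen2* and *Spen*). Among all 32851 promoters 6.38% held a match. That share counts promoters rather than genes, and some of these genes had more than 1 window. In *Lmx1a*-/- embryos 1 to 5, the direct Notch target *Nrarp* was 2.89, 2.12, 1.40, 0.914 and 0.974 CPM, and in wild-type embryos 1 to 5 it was 3.84, 2.93, 2.38, 2.698 and 2.77 CPM. Mutant embryo 1 was the only mutant within the wild-type range.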
